A study of Mus musculus with 2 samples.

Results

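The 4 genes Npy, Npy1r, Npy2r and Npy5r, which encode neuropeptide Y and its Y1, Y2 and Y5 receptors, were read from the 23912 genes of the deposited count tables by their symbols, and all 4 were present in both tables. The questions were how many nuclei carried the Npy transcripts, which transmitter genes those nuclei held, and how the receptor genes were spread over transmitter classes within each library. The nuclei came from the hindbrains of 8 to 12 week old mice of the TRAP2 strain, cut between -7.3 and -5.2 mm from bregma. AAV-retro-H2B-GFP, a virus taken up by axon ends that carries a nuclear fluorescent protein, had been placed in the lumbar cord, so that sorted nuclei belong to neurons that project there. The treatments, as labelled, were hot water bath and SNI with brush, with 1 library each, made from hindbrains pooled within the treatment, whose number the labels leave unsaid. In TRAP2 mice the Fos gene drives an inducible recombinase, which marks cells active in a chosen time window. The labels leave unsaid whether the fluorescent protein depended on that recombinase. All mice carried TRAP2 and the virus, and an untreated group is not among the samples. With 1 pooled library per treatment there was no replicate and no test. Ratios compare these libraries, and every interval is an exact 95% interval that covers counting error only.

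Neuropeptide Y is a peptide of 1 family with peptide YY and pancreatic polypeptide, and is cut from a longer precursor and packed into dense core vesicles. Its receptors couple to inhibitory G proteins, which lower cyclic AMP, open inwardly rectifying potassium channels and close presynaptic calcium channels. Y1 is known mainly as a receptor on cell bodies and dendrites and Y2 as a presynaptic receptor that limits transmitter release, while Y5 is often found together with Y1. In the dorsal horn of the spinal cord neuropeptide Y is made by a group of inhibitory interneurons, and in the brainstem it is also made by many catecholaminergic neurons.

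In the mm10 mouse genome Npy (ENSMUSG00000029819) lies at chr6:49822710-49829507 on the plus strand and Npy2r (ENSMUSG00000028004) at chr3:82538383-82548084 on the minus strand. Npy1r (ENSMUSG00000036437, chr8:66697192-66706792, plus strand) and Npy5r (ENSMUSG00000044014, chr8:66679965-66688128, minus strand) are neighbours that are transcribed away from each other, with 9063 bases between the annotated gene ends. All 4 are protein-coding genes in GENCODE M21. Upstream sequences are shown for Npy, because of the 4 genes it differed most between the libraries, and for Npy1r and Npy5r, because the pair starts from the same stretch of chromosome. They are the 250 bases before the RefSeq gene start (GRCm38.p6), written in the direction of transcription. The windows lie at chr6:49822460-49822709 (plus strand), chr8:66697172-66697421 (plus strand) and chr8:66688095-66688344 (minus strand). For Npy1r and Npy5r the RefSeq start differs from the GENCODE start. Most of the Npy1r window and part of the Npy5r window thus lie inside the gene positions given above.
Npy: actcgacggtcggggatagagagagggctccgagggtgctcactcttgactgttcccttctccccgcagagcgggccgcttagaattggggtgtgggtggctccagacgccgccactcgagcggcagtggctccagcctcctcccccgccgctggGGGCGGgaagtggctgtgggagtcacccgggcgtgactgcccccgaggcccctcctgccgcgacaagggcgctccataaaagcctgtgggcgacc
Npy1r: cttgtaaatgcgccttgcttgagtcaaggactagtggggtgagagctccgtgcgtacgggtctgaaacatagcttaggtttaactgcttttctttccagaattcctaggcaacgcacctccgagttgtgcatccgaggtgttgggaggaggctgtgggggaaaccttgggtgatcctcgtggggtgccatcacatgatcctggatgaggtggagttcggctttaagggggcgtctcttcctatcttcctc
Npy5r: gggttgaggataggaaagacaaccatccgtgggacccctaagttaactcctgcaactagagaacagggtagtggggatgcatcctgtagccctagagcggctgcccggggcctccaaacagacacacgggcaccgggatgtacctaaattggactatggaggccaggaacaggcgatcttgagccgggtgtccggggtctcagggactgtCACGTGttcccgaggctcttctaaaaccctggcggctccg
Capitals mark a match to 1 of 4 short motifs searched on both strands, and no match overlapped another. The Npy window held the Sp1-type box GGGCGG, found in 32.9% of the 27025 RefSeq promoter windows of this length, and had a GC content of 69.2%. The Npy5r window held the E-box CACGTG, found in 6.05% of windows, at a GC content of 58.8%. None of the 4 motifs was in the Npy1r window, whose GC content was 53.6%. The other motifs searched were the core of the cyclic AMP response element, TGACG, present in 17.9% of windows, and the TATA motif TATAAA, present in 13.0%. A match of letters is a description and marks no bound site.

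After removal of 3 and 2 doublets called by Scrublet, and of 15 nuclei led by liver genes in the SNI with brush library, 422 hot water bath and 271 SNI with brush neurons remained, with 16158704 and 10829974 UMIs (unique molecular identifiers, which tag each captured RNA molecule). The median was 36886 and 33238 UMIs per neuron. No barcode was shared between the libraries, and each of 8 neuron markers was seen in 97.4% to 100% of the neurons. Mitochondrial transcripts took 0.148% of the hot water bath UMIs and 0.514% of the SNI with brush UMIs, and hepatocyte genes gave 10.8 and 90.1 CPM in neurons (CPM, UMIs scaled to a total of 1000000). The doublets and the liver-gene nuclei held no UMI of any of the 4 genes. For the 15 liver-gene nuclei, at a median of 18631 UMIs, a count of 0 allows a share of nuclei of up to 20% and a level of up to 7.80 CPM.

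Each nucleus was placed in a class by its own transmitter UMIs, without use of the 4 genes. Serotonergic nuclei had at least 10 UMIs of Tph2, the enzyme of serotonin synthesis. Of the others with at least 3 transmitter UMIs, glutamatergic nuclei drew at least 75% of them from the vesicular glutamate transporters Slc17a6, Slc17a7 and Slc17a8. Inhibitory nuclei drew at most 25% from these and the rest from Slc32a1, Gad1, Gad2 and Slc6a5. Slc6a5 encodes the neuronal glycine transporter, and inhibitory nuclei with at least 2 of its UMIs are called glycinergic, the others GABAergic. The hot water bath library had 251 glutamatergic, 20 glycinergic, 40 GABAergic and 26 serotonergic nuclei, and 85 with mixed or few transmitter UMIs. The SNI with brush library had 123, 79, 25, 3 and 41. Within 10 percentage points of a class limit lay 50 and 40 nuclei.

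Npy transcripts were concentrated in a few inhibitory nuclei. In the hot water bath library 14 Npy UMIs lay in 7 nuclei, 8 of them in 1 GABAergic nucleus and 1 in each of the other 6. In the SNI with brush library 188 Npy UMIs lay in 36 nuclei, of which 23 held 1 UMI and 5 held 2. The remaining 8 nuclei held 68, 52, 11, 9, 5, 4, 3 and 3 Npy UMIs. The 2 highest thus carried 120 of the 188 UMIs, 63.8%. Nuclei of the inhibitory classes carried 12 of the 14 hot water bath UMIs (85.7%) and 171 of the 188 SNI with brush UMIs (91.0%).

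**Figure D1:**
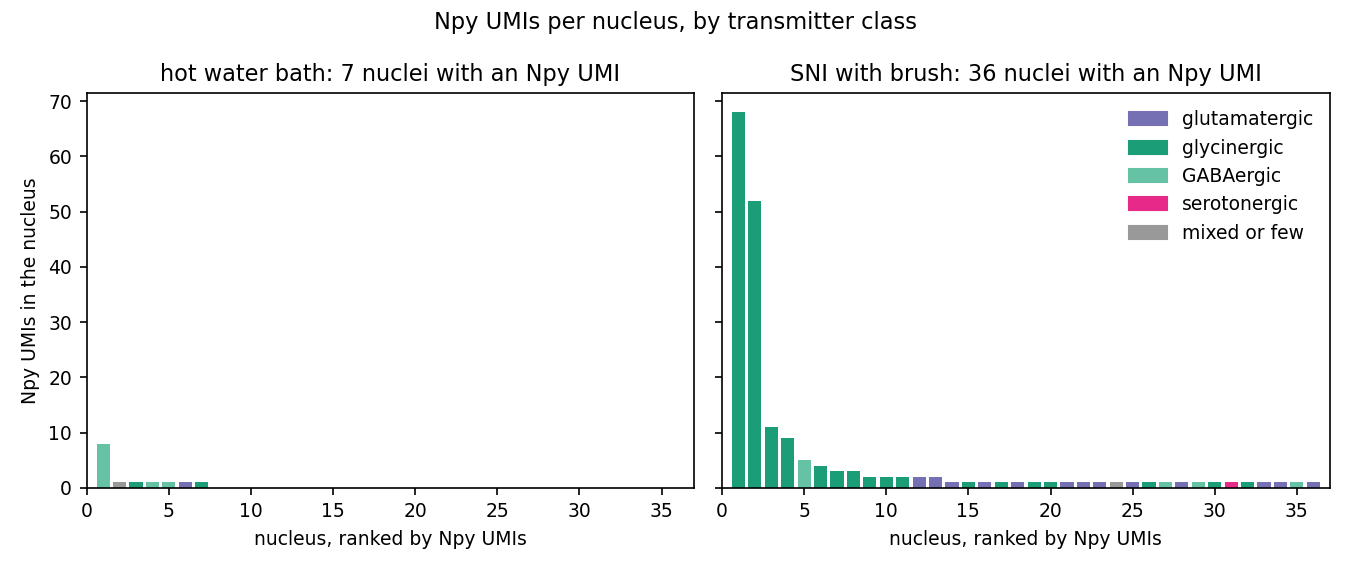
Npy UMIs (vertical axis, linear) in each nucleus with at least 1, ranked from high to low (horizontal axis) and coloured by transmitter class, for the 7 hot water bath and 36 SNI with brush nuclei. Each bar is 1 nucleus, and the 2 glycinergic nuclei with 68 and 52 UMIs stand above all others.

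A nucleus with at least 3 Npy UMIs is called an Npy nucleus here. There was 1 among 422 hot water bath neurons (0.237%, 0.006 to 1.31%) and 8 among 271 SNI with brush neurons (2.95%, 1.28 to 5.73%). The hot water bath nucleus was GABAergic, and of the 8 in the SNI with brush library 7 were glycinergic and 1 GABAergic. No glutamatergic or serotonergic nucleus of either library reached 3 Npy UMIs. Among glycinergic nuclei SNI with brush had 7 of 79 (8.86%, 3.64 to 17.4%), against 0 of 20 in the hot water bath library, which allows a share of up to 15%. The hot water bath library therefore held too few glycinergic nuclei to show a difference in this share.

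In the SNI with brush library single Npy UMIs were spread more evenly. Outside the Npy nuclei, the SNI with brush library had 33 Npy UMIs in 28 nuclei. An Npy UMI was seen in 10 of the 72 other glycinergic nuclei (13.9%, 6.87 to 24.1%), in 3 of 24 GABAergic nuclei (12.5%, 2.66 to 32.4%) and in 13 of 123 glutamatergic nuclei (10.6%, 5.75 to 17.4%), at class median depths of 33172, 19630 and 37372 UMIs. These shares overlapped within their intervals, so in this library 1 or 2 Npy UMIs in a nucleus did not separate the inhibitory classes from the glutamatergic background. In the hot water bath library the same shares were 2 of 20 (10%, 1.23 to 31.7%), 2 of 39 (5.13%, 0.627 to 17.3%) and 1 of 251 (0.398%, 0.010 to 2.20%). The glutamatergic share was thus the lowest of these there, though the intervals overlapped. No serotonergic nucleus of 26 had an Npy UMI.

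The transmitter genes of the Npy nuclei were almost all inhibitory. The nucleus with 68 Npy UMIs had 4 Slc6a5, 4 Slc32a1, 6 Gad1 and 7 Gad2 UMIs and no vesicular glutamate transporter UMI, in 18666 UMIs in all. Npy alone was 3643 CPM of that nucleus. The nucleus with 52 had 9 Slc6a5, 15 Slc32a1, 16 Gad1 and 10 Gad2 UMIs in 38572. Both thus held the genes for making GABA, with Gad1 and Gad2, and for taking up glycine, with Slc6a5. All 7 glycinergic Npy nuclei had between 4 and 10 Slc6a5 UMIs and 1 to 15 Slc32a1 UMIs, whereas Gad1 was seen in 5 and Gad2 in 6 of them. A single Slc17a6 UMI was the only glutamatergic UMI among these 7.

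Both GABAergic Npy nuclei carried Gad2 and Gata3. The hot water bath nucleus had 11 Gad2, 1 Gad1 and 1 Slc32a1 UMIs and no Slc6a5 UMI, with 4 UMIs of Gata3, a factor of the V2b interneuron lineage, 4 of Penk, the enkephalin precursor, and 3 of Nos1, the neuronal nitric oxide synthase. The SNI with brush nucleus had 6 Gad2 and 2 Slc17a6 UMIs, which put it on the class limit of 25%, with 6 UMIs of Gata3, 10 of Calca, the CGRP precursor, and 5 of Cck, the cholecystokinin precursor. It also held 3 UMIs of Slc5a7 and 1 of Slc18a3, both cholinergic genes, 1 of Th, the first enzyme of catecholamine synthesis, and 1 of Tph2. It had no UMI of Gad1 or Slc32a1, so its place among the GABAergic nuclei rested on Gad2 alone. Gata3, Penk and Nos1 also occurred in glycinergic Npy nuclei, Gata3 and Nos1 in 1 each. The 7 glycinergic Npy nuclei had no UMI of any of the 5 catecholaminergic genes measured, among them Th and Dbh. This did not set them apart, as the 62 glycinergic nuclei of that library without Npy held only 3 such UMIs. None of these 3 was of Th or Dbh.

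**Figure D2:**
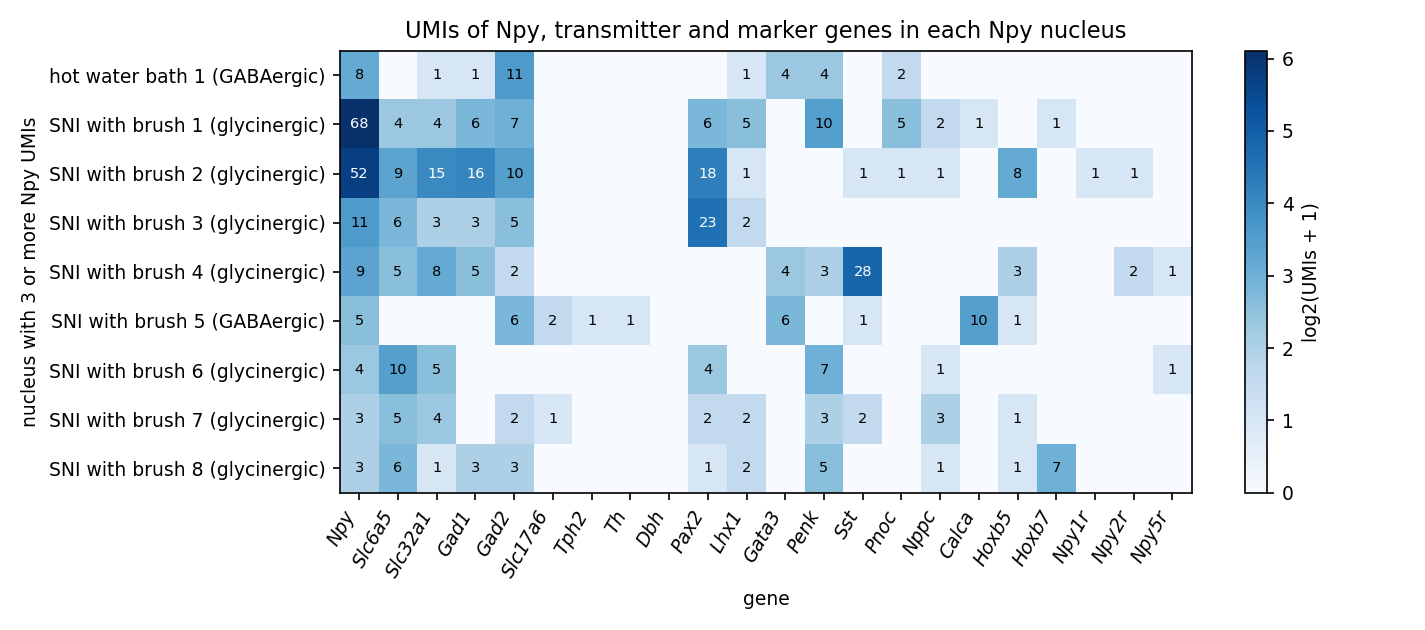
UMIs of Npy, transmitter, lineage, peptide and receptor genes (columns) in each of the 9 nuclei with at least 3 Npy UMIs (rows), with the count printed in each cell and colour on a log2(UMIs + 1) scale. Slc6a5 is present in the 7 glycinergic nuclei and absent from both GABAergic nuclei, and Dbh is absent from all 9.

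Penk and Pax2 were seen in most of the 7 glycinergic Npy nuclei, whereas most UMIs of Sst, Hoxb7 and Hoxb8 came from single nuclei. Penk was seen in 5 of the 7 glycinergic Npy nuclei, with 10, 7, 5, 3 and 3 UMIs. The somatostatin precursor Sst gave 28 UMIs in the nucleus with 9 Npy UMIs, out of 31 over the 7. Pax2, a factor of inhibitory interneurons in hindbrain and cord, was seen in 6 of the 7, with 23, 18, 6, 4, 2 and 1 UMIs. The nucleus with 28 Sst UMIs lacked Pax2 and had 4 Gata3 UMIs, while 2 others had 2 and 1 Sst UMIs beside Pax2. The more caudal Hox genes Hoxb7 and Hoxb8 came mostly from 1 nucleus, which had 7 and 4 UMIs of them.

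The 7 glycinergic Npy nuclei were then set beside the 62 glycinergic nuclei of the same library without an Npy UMI, at median depths of 32256 and 34689 UMIs. The genes with the highest ratios, among those with at least 50 UMIs and a UMI in at least 50% of the 7, were led by Rgs6, a regulator of G protein signalling, at 945 CPM with Npy and 192 CPM without (log2 ratio 2.30, 2.05 to 2.54). Rgs6 was seen in 7 of 7 and 41 of 62 nuclei, with 48.5% of its UMIs among the 7 in 1 nucleus. Bcl11a, a transcription factor of projection neurons and dorsal horn neurons, stood at 297 and 67.0 CPM (log2 ratio 2.16, 1.70 to 2.58). Pax2 stood at 263 and 65.03 CPM (2.03, 1.55 to 2.47) and the kainate receptor subunit Grik3 at 248 and 62.6 CPM (2.00, 1.503 to 2.45). Pdzd2, Ldb2, the cGMP-dependent kinase Prkg1 and the corepressor Runx1t1 followed with log2 ratios between 1.79 and 1.89. A single nucleus gave 42.6% of the UMIs of Pax2 among the 7, 46.6% of those of Pdzd2 and 42.7% of those of Prkg1. These 8 genes were picked as the highest of many, so their ratios are a description of the 7 nuclei.

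The 8 peptide processing genes summed to 1993 CPM in the 7 nuclei and 1222 CPM in the 62, a difference that came largely from Pam and Chgb. Pam, the enzyme that amidates peptides such as neuropeptide Y, was seen in all 7 nuclei at 555 CPM and in 55 of 62 at 197 CPM (log2 ratio 1.4998, 1.19 to 1.79). Chgb, a granin of dense core vesicles, had a log2 ratio of 1.79 (1.27 to 2.26), but 31 of its 45 UMIs came from 1 nucleus. The prohormone convertase Pcsk2 had 0.41 (0.04 to 0.74) and the granin Scg2 0.71 (0.12 to 1.22). The other 4 had intervals across 0, with Cpe at 0.35, Scg5 at 0.29, Chga at -0.01 and Pcsk1, from 1 UMI in the 7 nuclei, at -0.58. Penk had 1.69 (1.02 to 2.28) and the interneuron factor Lhx1 had 1.79 (0.69 to 2.69). Of the 14 interneuron and lineage genes read, which include Lhx1 and Pax2, 8 were at 0 in the 7 nuclei. Among those at 0, Foxp2 had 153 UMIs in 12 of the 62 nuclei and Calb2 had 81 UMIs in 20. The intervals of Foxp2 and Calb2 lay below 0, with upper ends of -1.74 and -0.80. Of the 18 other peptide precursors, which include Penk, 9 were at 0 in the 7 nuclei. Of the transmitter genes, Gad1 had 0.92 (0.33 to 1.44) and Slc32a1 0.65 (0.12 to 1.11), while Slc6a5 at -0.33 (-0.81 to 0.10) and Gad2 at -0.27 (-0.89 to 0.25) had intervals across 0.

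Caudal Hox genes summed to 229 CPM with Npy and 86.4 CPM without, and 2 of the 11 were at 0 in the 7 nuclei. This sum was uneven over the 7, which held 4, 11, 1, 8, 1, 4 and 18 caudal Hox UMIs in order of their Npy UMIs. Hoxb7 gave 8 UMIs in the 7 nuclei and none in the 62, but 7 of the 8 were in 1 nucleus. Ecel1, a peptidase gene raised after nerve injury, gave 15 UMIs, all from the 2 nuclei highest in Npy (log2 ratio 2.90, 1.85 to 3.86). Gap43, the growth-associated protein, had 0.38 (-0.28 to 0.93). Of the 7 axon injury genes measured, 4 were at 0 in the 7 nuclei, and Sox11 had 1 UMI. Marker lists of other cells were of similar size on both sides. Hepatocyte genes summed to 107 and 101 CPM with 4 of 10 genes at 0 in the 7 nuclei, oligodendrocyte genes to 132 and 156 CPM with 1 of 6 at 0, and microglial genes to 82.8 and 69.4 CPM with 2 of 4 at 0. Choroid plexus genes, almost all Ttr, summed to 278 and 239 CPM with 1 of 3 at 0.

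Over all neurons Npy stood at 0.866 CPM (0.474 to 1.45) in the hot water bath library and 17.4 CPM (14.97 to 20.03) in the SNI with brush library, a log2 ratio of 4.28 (3.54 to 5.22). The SNI with brush library had more glycinergic nuclei, and within the glycinergic class Npy stood at 2.66 CPM (0.322 to 9.61), from 2 UMIs, and 53.3 CPM (45.5 to 62.2), a log2 ratio of 4.01 (2.45 to 7.38). Without the 2 highest SNI with brush nuclei this ratio was 2.12 (0.49 to 5.52). Of all genes with at least 20 UMIs in the class, 24.9% were higher by 1.5-fold or more among glycinergic nuclei of the SNI with brush library and 7.72% lower, and in the GABAergic class 34.5% and 11.6%. GABAergic nuclei had 7.17 CPM (3.44 to 13.2) and 12.8 CPM (5.51 to 25.1), with intervals that overlapped. Glutamatergic nuclei had 0.099 CPM (0.003 to 0.553), from 1 UMI, and 2.64 CPM (1.48 to 4.36). Nuclei with mixed or few transmitter UMIs had 0.353 and 0.758 CPM. In the SNI with brush library the glycinergic level lay above those of the GABAergic, glutamatergic, mixed and serotonergic nuclei without overlap of intervals. This separation from the GABAergic level rested on the nuclei with 68 and 52 UMIs. Without them the glycinergic level was 14.3 CPM (10.4 to 19.3), within the GABAergic interval and above the glutamatergic. The GABAergic interval lay above the glutamatergic in both libraries, but this rested on 1 nucleus in each. Without the nucleus with 5 Npy UMIs the SNI with brush GABAergic level was 4.98 CPM (1.03 to 14.5), and without the nucleus with 8 the hot water bath GABAergic level was 1.46 CPM (0.177 to 5.27). Both then overlapped the glutamatergic intervals. In the hot water bath library the GABAergic and glycinergic intervals overlapped.

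Mitochondrial share moved with this result, as it was higher in the SNI with brush library. The nuclei with 68 and 52 Npy UMIs had 0.616% and 2.97% mitochondrial UMIs. Among neurons with at most 0.5% mitochondrial UMIs, 402 and 193 in number, 12 and 48 Npy UMIs were left, the log2 ratio between libraries was 2.93, and 3 of the 8 Npy nuclei of the SNI with brush library remained. Without the 2 highest Npy nuclei of each library the ratio was 4.22, from 5 and 68 UMIs. This removal also took 9 of the 14 hot water bath UMIs, so it does not show the weight of the nuclei with 68 and 52 UMIs alone. Without neurons that held 50 or more UMIs of liver genes the ratio was 4.28.

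**Figure D3:**
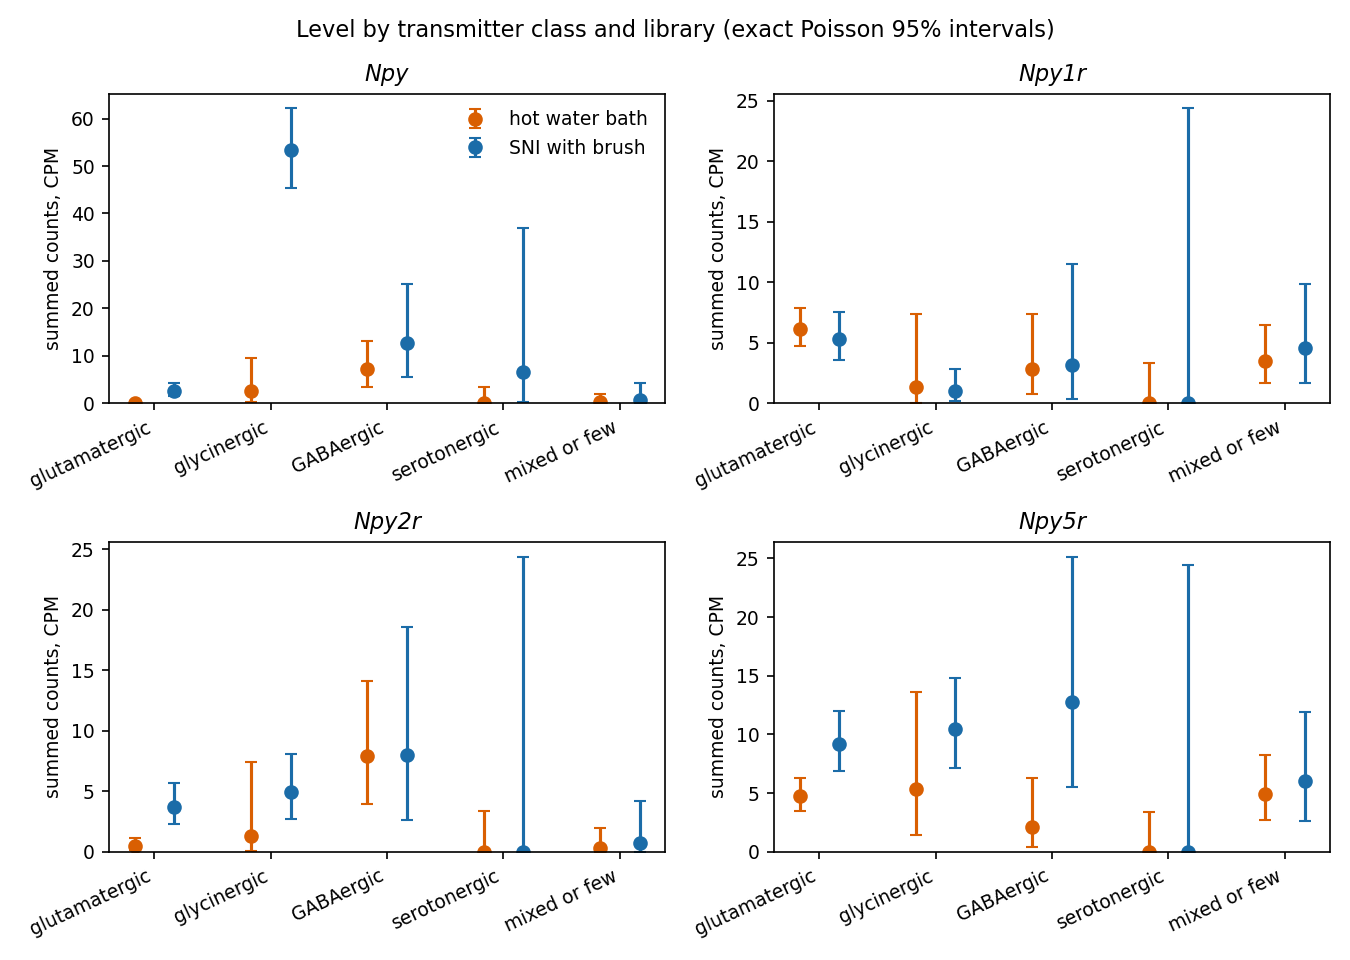
Level of each gene (CPM of summed UMIs, linear axes that differ between panels) by transmitter class in the hot water bath library (orange) and the SNI with brush library (blue), with exact Poisson 95% intervals for counting error. Npy in glycinergic nuclei of the SNI with brush library stands at 53.3 CPM, and all 3 receptor genes are at 0 in serotonergic nuclei, of which the SNI with brush library had only 3.

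Most Npy1r UMIs lay in glutamatergic nuclei, the largest class of both libraries. The hot water bath library had 77 Npy1r UMIs in 50 of 422 neurons and the SNI with brush library 41 in 29 of 271, at 4.77 CPM (3.76 to 5.96) and 3.79 CPM (2.72 to 5.14). Of these, 62 and 30 UMIs lay in glutamatergic nuclei, at 6.15 CPM (4.71 to 7.88) and 5.29 CPM (3.57 to 7.55). Glycinergic nuclei had 1.33 CPM (0.034 to 7.41) and 0.981 CPM (0.202 to 2.87), GABAergic nuclei 2.87 CPM (0.782 to 7.34) and 3.19 CPM (0.386 to 11.5). Nuclei with mixed or few transmitter UMIs had 3.53 CPM (1.69 to 6.49) and 4.55 CPM (1.67 to 9.90). Of the intervals named so far, only the glycinergic interval of the SNI with brush library lay below that of glutamatergic nuclei. The others overlapped it. No Npy1r UMI was seen in the 26 serotonergic nuclei of the hot water bath library, which allows, at 3 counts, up to 2.74 CPM and a share of nuclei with a UMI of up to 11.5%. That limit is close to the 11.8% of all hot water bath neurons with an Npy1r UMI, so no difference in share was detectable. In level, the exact upper bound for a count of 0 was 3.37 CPM, where the bars in the plot of levels by class end. This bound lay below the glutamatergic interval of that library, which began at 4.71 CPM.

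The log2 ratio of inhibitory over glutamatergic nuclei for Npy1r was -1.27 (-3.07 to -0.10) in the hot water bath library, and SNI with brush gave -1.85 (-3.68 to -0.58). Each rested on 5 inhibitory UMIs. With a class limit of 90% in place of 75% the SNI with brush value was -0.57, which is under 1.5-fold. Of all genes with at least 20 UMIs in both classes together, 9.98% and 6.15% were at least 1.5-fold lower in inhibitory nuclei, and 11.1% and 9.17% at least 1.5-fold higher. For Npy the ratio was 5.29 (3.06 to 11.2) from 1 and 12 UMIs and 4.09 (3.37 to 5.00) from 15 and 171. Without the nucleus with 8 Npy UMIs the first was 3.83 (0.91 to 9.87), and without the nuclei with 68 and 52 the second was 2.38 (1.56 to 3.35). The second was 2.34 among neurons with at most 0.5% mitochondrial UMIs and 5.68 where all transmitter UMIs had to be of 1 kind.

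Nuclei with at least 3 Npy1r UMIs numbered 9 in the hot water bath library, 8 of them glutamatergic, and 1 glutamatergic nucleus with 4 UMIs in the SNI with brush library. The 8 had between 4 and 17 Slc17a6 UMIs, and 2 of them held 4 Npy1r UMIs while the other 6 held 3. Set beside the 213 glutamatergic nuclei without Npy1r, at median depths of 39323 and 38239 UMIs, their highest ratios were those of Adarb2 (log2 ratio 2.44, 2.32 to 2.56), Hs3st2 (2.21, 1.87 to 2.53), Fras1 (2.08, 1.69 to 2.43) and Col25a1 (2.02, 1.69 to 2.33). Adarb2, a brain protein related to RNA-editing enzymes, was seen in only 4 of the 8, and 68.7% of the Col25a1 UMIs came from 1 nucleus. Agbl1, Tcerg1l and Dach2 lay between 1.65 and 1.83. Of the UMIs among the 8 nuclei, 1 nucleus gave 58.5% for Dach2, 44.2% for Adarb2 and 43.75% for Hs3st2. Cacna2d3, a calcium channel subunit, was the only 1 of the 8 named genes seen in all 8 nuclei (1.71, 1.49 to 1.92). The named genes were again picked as the highest of many, so their ratios describe these 8 nuclei only.

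Npy2r was scarce, and GABAergic nuclei had the highest level in both libraries. The hot water bath library had 18 Npy2r UMIs in 13 neurons and the SNI with brush library 42 in 20, at 1.11 CPM (0.660 to 1.76) and 3.88 CPM (2.80 to 5.24). In the hot water bath library 11 of the 18 UMIs were in 6 GABAergic nuclei, at 7.89 CPM (3.94 to 14.1), and 5 in glutamatergic nuclei, at 0.496 CPM (0.161 to 1.16). In the SNI with brush library GABAergic nuclei stood at a like level, 7.97 CPM (2.59 to 18.6), from 5 UMIs. Glycinergic nuclei had 4.91 CPM (2.75 to 8.09) and glutamatergic nuclei 3.70 CPM (2.29 to 5.66), and these 3 intervals overlapped. The log2 ratio of inhibitory over glutamatergic nuclei was 3.42 (1.89 to 5.35) in the hot water bath library, and SNI with brush gave 0.56 (-0.41 to 1.51). The difference between these ratios was not tested.

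The Npy2r UMIs of glutamatergic nuclei in the SNI with brush library were held by 8 nuclei, of which 3 had 5, 5 and 3 UMIs. The first of these had 7 UMIs of Slc17a8, the third vesicular glutamate transporter, and none of Slc17a6, and the second had 20 Slc17a6 UMIs. Glycinergic nuclei with 3 Npy2r UMIs numbered 2 and GABAergic ones 1. In the hot water bath library the 2 nuclei with 3 Npy2r UMIs were GABAergic, with 24 and 16 Gad2 UMIs. No nucleus with at least 3 Npy2r UMIs was an Npy nucleus, although 1 of the glycinergic ones had 1 Npy UMI. Of the 8 Npy nuclei in the SNI with brush library 2 had Npy2r UMIs, 1 and 2 of them, 2 had an Npy5r UMI and 1 had an Npy1r UMI.

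Npy5r UMIs were seen in all classes except the serotonergic. It gave 69 UMIs in 52 hot water bath neurons and 100 UMIs in 63 SNI with brush neurons, at 4.27 CPM (3.32 to 5.40) and 9.23 CPM (7.51 to 11.2). In the hot water bath library glycinergic nuclei had 5.32 CPM (1.45 to 13.6), mixed nuclei 4.94 CPM (2.70 to 8.29), glutamatergic nuclei 4.76 CPM (3.51 to 6.31) and GABAergic nuclei 2.15 CPM (0.444 to 6.29). In the SNI with brush library the order was GABAergic at 12.8 CPM (5.51 to 25.1), glycinergic at 10.5 CPM (7.16 to 14.8), glutamatergic at 9.16 CPM (6.84 to 12.0) and mixed at 6.06 CPM (2.62 to 11.9). Within each library neighbours in these orders overlapped within their intervals. The serotonergic nuclei of the hot water bath library had no Npy5r UMI, with the same limit of 2.74 CPM as for Npy1r. Their exact upper bound of 3.37 CPM lay just below the glutamatergic interval of that library, which began at 3.51 CPM.

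The log2 ratio of inhibitory over glutamatergic nuclei for Npy5r was -0.46 (-1.93 to 0.61) in the hot water bath library, and SNI with brush gave 0.25 (-0.39 to 0.87), both with intervals across 0. Most Npy5r nuclei held 1 UMI, 40 of 52 and 42 of 63. The highest counts were in glutamatergic nuclei, with 6 UMIs in 1 hot water bath nucleus and 8, 6 and 4 in SNI with brush nuclei. The nuclei with 8 and 4 were deep, at 73162 and 109730 UMIs, and the 2 glycinergic nuclei with 3 Npy5r UMIs had 117868 and 54976.

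After each nucleus was thinned to 9000 UMIs, which left out none, the share of neurons with a receptor UMI was low. Npy1r was present in 3.32% (1.82 to 5.50%) of hot water bath and 3.69% (1.78 to 6.68%) of SNI with brush neurons, against 11.8% and 10.7% at full depth. Npy2r was seen in 0.711% (0.147 to 2.06%) and 2.58% (1.05 to 5.25%), against 3.08% and 7.38%. Npy5r was seen in 3.08% (1.65 to 5.21%) and 6.27% (3.70 to 9.85%), against 12.3% and 23.2%. For each receptor gene the thinned intervals of the 2 libraries overlapped. At full depth 24.2% (20.2 to 28.5%) of hot water bath and 33.6% (28.0 to 39.5%) of SNI with brush neurons held a UMI of at least 1 of the 3 genes. The liver-gene nuclei held none, but their limit of 7.80 CPM lies above the levels of Npy1r and Npy2r over all neurons, so they set no background for these.

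Npy1r and Npy5r are divergent neighbours and were tallied in the same nuclei. Among glutamatergic nuclei with an Npy5r UMI, Npy1r was seen in 10 of 35 (28.6%, 14.6 to 46.3%) in the hot water bath library, against 28 of 216 nuclei without Npy5r (13.0%, 8.79 to 18.2%). In the SNI with brush library it was seen in 7 of 29 (24.1%, 10.3 to 43.5%), against 13 of 94 (13.8%, 7.57 to 22.5%). The nuclei with Npy5r were deeper, at medians of 43305 against 38431.5 UMIs and 50122 against 35298. The intervals overlapped in both libraries. Thinned to 9000 UMIs, 1 of 13 hot water bath neurons with Npy5r also had Npy1r (7.69%), against 13 of 409 without Npy5r (3.18%). In the SNI with brush library 3 of 17 thinned neurons with Npy5r had Npy1r (17.6%), against 7 of 254 without (2.76%). The thinned share was thus higher with Npy5r in both libraries, but it rested on these few neurons and the intervals overlapped.

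Between the libraries, 3 of the 4 genes were higher by 1.5-fold or more over all SNI with brush neurons, and none was lower by that much. Of the 17587 genes with at least 20 UMIs, 30.4% were higher and 8.31% lower by this measure. Npy had the log2 ratio of 4.28 given above, Npy2r 1.78 (0.97 to 2.68) and Npy5r 1.11 (0.66 to 1.58). Npy1r had -0.32 (-0.92 to 0.23). A gene higher by 1.5-fold was thus common in this comparison, and the median log2 ratio of all genes was 0.23. Scaling by size factors in place of total UMIs shifted these ratios over all neurons by -0.17 and changed no call of the 4 genes.

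Within glutamatergic nuclei Npy2r had a log2 ratio of 2.80 (1.45 to 4.66) from 5 and 21 UMIs and Npy5r 0.94 (0.35 to 1.54), while Npy1r had -0.21 (-0.90 to 0.43). Of all genes, 27.3% passed 1.5-fold upward there and 8.44% downward. Npy had 4.198 (2.04 to 10.1), from 1 and 15 UMIs. Within inhibitory nuclei Npy had 2.999 (2.21 to 4.03), or 1.29 (0.40 to 2.37) without the nuclei with 68 and 52 UMIs, and Npy5r 1.65 (0.56 to 3.14), where 31.3% of genes passed 1.5-fold upward and 8.35% downward. Npy2r was level there, at 5.59 and 5.43 CPM (-0.07, -1.14 to 1.12). Npy1r had -0.78 (-2.90 to 1.34) from 5 UMIs in each library, which is no measurable difference at this depth.

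**Figure D4:**
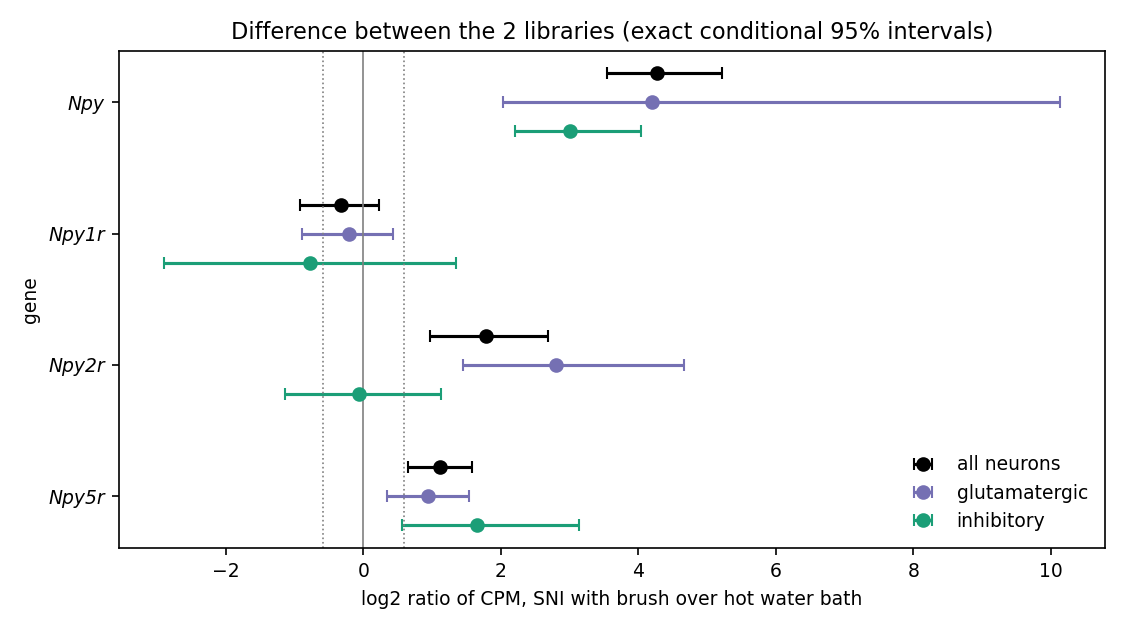
Log2 ratio of CPM, SNI with brush over hot water bath (horizontal axis), for each gene (vertical axis) over all neurons (black), glutamatergic (purple) and inhibitory (green) nuclei, with exact conditional 95% intervals and dotted lines at 1.5-fold either way. Npy lies to the right of the lines in all 3 sets, Npy1r has intervals across 0 in all 3, and Npy2r is at 2.80 in glutamatergic and -0.07 in inhibitory nuclei.

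Other genes of the neuropeptide Y system were few. Pyy, which encodes peptide YY, had no UMI in either library. Dpp4, a cell-surface peptidase that trims neuropeptide Y to forms that no longer act on Y1, gave 55 UMIs in 33 hot water bath and 54 UMIs in 34 SNI with brush neurons. Its log2 ratio was 0.55 (-0.02 to 1.12). It also gave 96 UMIs in 14 of the 15 liver-gene nuclei, at 249.4 CPM against 4.99 CPM in neurons of that library. Ppy, Npy4r and Npy6r were not analysed here.

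Genes through which Y receptors act were read from a list of 16, and all 16 had at least 20 UMIs. Over all neurons 3 passed 1.5-fold upward in the SNI with brush library and 1 downward, where 30.4% and 8.31% of all genes did, and their median log2 ratio was -0.04 against 0.23 for all genes. The 3 were Kcnj9, a subunit of G protein-gated potassium channels (log2 ratio 1.36, 1.04 to 1.69), Rgs4, which shortens G protein signals (1.47, 1.08 to 1.88), and Arrb2, an arrestin that uncouples receptors (0.95, 0.68 to 1.22). The adenylyl cyclase Adcy2 had -0.71 (-0.79 to -0.64). The inhibitory G protein subunits Gnai1, Gnai3 and Gnao1 and the channel subunits Kcnj3 and Kcnj6 lay between -0.43 and 0.15, and Gnai2 was at 0.37 (0.13 to 0.61).

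Of 8 peptide processing genes none was at least 1.5-fold higher over all neurons and 1 was lower, against 30.4% and 8.31% of all genes, with a median of 0.10. The 1 was the prohormone convertase Pcsk1, at 58.2 and 37.5 CPM (log2 ratio -0.63, -0.81 to -0.47). Within inhibitory nuclei 3 were higher and 3 lower, against 31.3% and 8.35% of all genes. Pcsk2 had 1.73 (1.52 to 1.95) there, and the granins Chga and Chgb had 0.74 each, while Pcsk1 had -2.64 (-3.20 to -2.13), Pam -1.27 (-1.40 to -1.14) and Scg2 -0.68 (-0.87 to -0.49). The sign of the Pam value within inhibitory nuclei was opposite to that in glycinergic Npy nuclei, but these are unlike comparisons. Inhibitory nuclei were mostly GABAergic in the hot water bath library (40 of 60) and mostly glycinergic in the SNI with brush library (79 of 104). In ratios between libraries over pooled inhibitory nuclei, library and this mix cannot be told apart.

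Npy is itself raised in sensory neurons after nerve injury, so 8 axon injury genes were read beside it, of which 6 had at least 20 UMIs. Of these 2 were at least 1.5-fold higher, the galanin precursor Gal at 1.65 (1.04 to 2.32) and Gadd45a at 1.17 (0.42 to 1.97), and Gap43 was lower at -0.96 (-1.04 to -0.88). Ecel1, Jun and Sox11 were at 0.02, 0.00 and 0.23. The median of the list was 0.12. Of all genes 30.4% passed 1.5-fold upward and 8.31% downward. Within inhibitory nuclei, where most Npy UMIs lay, none of the 5 with at least 20 UMIs was higher and 2 were lower, Gap43 at -1.36 (-1.54 to -1.19) and Gal at -1.43 (-2.76 to -0.23), beside 31.3% and 8.35% of all genes.

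Among 18 other peptide precursors 9 were at least 1.5-fold higher over all neurons and 4 lower, with a median log2 ratio of 0.66. For all genes the shares were 30.4% and 8.31%. Nts (neurotensin) had 3.61 (2.98 to 4.36) and Nppc 3.14 (2.62 to 3.75), both under the 4.28 of Npy, and Sst had 2.32 (2.15 to 2.50). Gcg, the proglucagon gene, had -3.25 (-3.61 to -2.92). Within inhibitory nuclei 13 had at least 20 UMIs, of which 5 were higher and 5 lower, beside 31.3% and 8.35% of all genes. Penk, which most glycinergic Npy nuclei carried, had -0.86 (-1.15 to -0.57) in that class.

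The genes whose class pattern was most like that of each member were found by Pearson's r of log2(CPM + 1) over 10 sums, the 5 classes of each library, among 11245 genes. The sums share library and depth, and the serotonergic sum of the SNI with brush library rests on 3 nuclei. For Npy5r the nearest were Slitrk2 and Klhdc8a (r = 0.99 each), then Hs6st1, Pex5l and Tmem35a (0.98 each). For Npy1r they were Nrn1 (0.94), Pou3f2 and Adam12 (0.92 each), and Dsc2 and Ghdc (0.91 each). For Npy2r they included Psme3 (0.92), Actl6b (0.91), Dgat1 (0.90) and Oma1 (0.89). For Npy they included Ddx1 (0.92), Eif2s3x (0.88), Cmpk2 (0.86) and Keap1 (0.85), of which Ddx1 varied only between 51.1 and 74.6 CPM over the 10 sums.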

How the data were processed

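Nuclei of descending hindbrain neurons were profiled in 2 libraries, 1 per treatment. The authors deposited whole-number UMI counts per gene and nucleus, which were used as raw counts. Cell Ranger 5.0, Seurat and the mm10 genome are named in the submitters' processing notes, and the authors' filter on nuclei, which kept 425 of 723 and 288 of 850 listed barcodes, has no rule in the labels. The libraries totalled 16344606 and 11298755 counts. A filter of at least 500 genes and at most 5% mitochondrial UMIs removed no nucleus. Doublets were called with Scrublet in scanpy 1.11.5 (3 and 2), and nuclei with UMIs of at least 4 hepatocyte genes, summing to more than 8 neuron markers, were set aside (0 and 15). The labels give 1 pooled library per treatment and nuclei of a library share their source, which leaves no replicate and no p-value.

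Summed counts were scaled to 1000000 (CPM) with exact Poisson intervals, shares have Clopper-Pearson intervals, and ratios are log2 with 0.5 UMI added to both sides and an exact interval conditional on the summed count. A count of 0 was given a limit of 3 counts. The computation of ratios was tested on simulated data. The 4 members, the gene lists and the classes were chosen with earlier results of these data known. Named genes were the members, the other genes of the system, the 5 genes most like each member, the 8 highest ratios in nuclei with a member (at least 5 nuclei), and list genes with at least 5 UMIs in Npy nuclei or past 1.5-fold, some of which are given. Some genes that the rule names are left out of the text. List genes named with smaller ratios, and those described for single nuclei, were chosen with their values in view. Alternatives were other thresholds, classes, scalings, depths and subsets of nuclei. Python 3.11.15, numpy 2.4.6, scipy 1.17.1 and pandas 2.3.3 were used, with GENCODE M21 for positions and RefSeq (GRCm38.p6) for promoters.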

Additional observations from a re-analysis of the deposited data

Results flagged for a closer look

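Some ratios had opposite signs under the same contrast, and none of these differences was tested. Npy5r was lower in inhibitory than in glutamatergic nuclei of the hot water bath library (log2 ratio -0.46) and higher in the SNI with brush library (0.25), both with intervals across 0. The latter was -0.16 where all transmitter UMIs had to be of 1 kind and -0.02 among neurons with at most 0.5% mitochondrial UMIs. Npy2r had a log2 ratio between libraries of 2.80 in glutamatergic nuclei and -0.066 in inhibitory nuclei, from 5 and 21 and from 12 and 20 UMIs. Within the inhibitory nuclei, the log2 ratio of glycinergic over GABAergic for Npy was -1.18 (-4.66 to 0.80) in the hot water bath library, where 8 of the 12 UMIs were in 1 nucleus, and SNI with brush gave 1.98 (1.05 to 3.30). For Npy5r it was 1.25 (-1.26 to 4.08) and -0.35 (-1.43 to 1.04), from 7 and 40 UMIs.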

How the results depend on the processing

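Of 173 alternative values for 30 results, 142 stayed within the range set for them (the interval of the main value, or 1.5 times a count), 31 moved and none of those past 1.5-fold turned sign. Part of the 142 could hardly move. The doublets and the liver-gene nuclei held no UMI of the 4 genes, so keeping them could change only the total UMIs. No hot water bath neuron held 50 or more liver UMIs, so that limit changed nothing within that library. Size factors, applied to the ratios between libraries over all neurons only, shifted these by -0.17 and changed no call of the 4 genes. The number of Npy nuclei followed its threshold: at 2, 5 and 10 UMIs there were 13, 5 and 3 SNI with brush nuclei, and the hot water bath library had 0 at 10 UMIs. After thinning to 9000 UMIs, 3 and 16 nuclei had an Npy UMI. Among neurons with at most 0.5% mitochondrial UMIs, a subset chosen for this count after seeing the data, 3 Npy nuclei were left in the SNI with brush library, the Npy ratio between libraries was 2.93 and that between classes in the SNI with brush library 2.34. With transmitter UMIs of 1 kind only, 83.5% of the SNI with brush Npy UMIs were inhibitory and the class ratio was 5.68. The class ratio of Npy1r in the SNI with brush library was -0.57 with a class limit of 90%. Npy levels and ratios without the nuclei highest in Npy, given above, were added after seeing the data. The causes were not tested.

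Shares of neurons with a receptor UMI depend on depth: unthinned they were 11.8% and 10.7% for Npy1r, 3.08% and 7.38% for Npy2r and 12.3% and 23.2% for Npy5r. At 5000 UMIs the SNI with brush shares were 1.48% for Npy1r and 3.32% for Npy5r, and no neuron with Npy5r had Npy1r in either library, a share of 0. No paired analysis was possible because each treatment has 1 library and nothing pairs animals across the pools. The main limits are the single library per treatment, the 20 glycinergic nuclei of the hot water bath library and receptor counts of 1 UMI in most nuclei.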
